A study of Homo sapiens with 6 samples.

Results

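L1MA and L1MB elements are old copies of LINE-1 (L1), and 16861 loci of them carried at least 1 read in these libraries. They were chosen by name alone: every locus whose repeat name starts with L1MA or L1MB was kept, out of 433837 listed loci of all repeat kinds. L1MA gave 6532 loci under 12 repeat names, and L1MB gave 10329 loci under 7 repeat names. The cells were HEK293T, an established line of human embryonic kidney origin made with SV40 large T antigen, and the study asked about roles of U7 small nuclear RNA. In one group a chimeric antisense oligonucleotide (ASO) against U7 RNA was delivered by lipofection at 100 nM (genotype label "U7 snRNA knockdown"), and in the other a GFP ASO served as control (genotype label "WT"). Each group had 3 libraries, numbered 1 to 3 by the titles and described as biological replicates, from total RNA depleted of ribosomal RNA. All 6 libraries come from this single line. The counts cover repeats only, so marker genes of the line could not be read. The 16 loci named U7 held 10, 6 and 12 reads in control libraries 1 to 3 and 10, 4 and 6 reads in U7 ASO libraries 1 to 3, too few to check the knockdown.

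LINE-1 is a retrotransposon without long terminal repeats that copies itself through an RNA intermediate, using the proteins of its ORF1 and ORF2. Its copies fall into a succession of subfamilies named mostly from the 3′ end: L1HS and L1PA are primate-specific, L1PB is older, and L1MA, L1MB, L1MC, L1MD and L1ME are progressively older lineages that other mammals share in part. L1MA and L1MB copies have not been mobile in humans for a very long time, and most are short 3′ pieces with many mutations. Many lie in introns or beside genes, so reads in such a copy can belong to a longer transcript that passes through it. Because the copies have diverged from each other, a read can be placed on 1 of them more easily than on a young L1.

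Reads in L1MA and L1MB loci were a small share of repeat reads, and their share of L1 reads varied little between libraries. The loci held 22917, 25026 and 34339 reads in control libraries 1, 2 and 3, and 30316, 43438 and 48105 reads in U7 ASO libraries 1, 2 and 3. As a share of all reads in repeat loci, these were 1.13%, 1.30% and 1.73% in the controls and 1.45%, 1.85% and 1.71% after the U7 ASO, and the groups overlapped. The exact (Clopper-Pearson) 95% intervals spanned 1.12% to 1.75% in the control group and 1.43% to 1.87% in the U7 ASO group. These intervals of shares, and the floors used for bounds below, cover counting error only, while the intervals of fold changes rest on the spread between libraries. As a share of all L1 reads the values were 20.8%, 20.2% and 20.5% in the controls and 21.4%, 20.5% and 19.8% after the U7 ASO, and these groups overlapped too. The reads in all repeat loci numbered between 1926892 and 2819540 per library, and 7SK, ribosomal and HY1 RNA repeats took between 41.2% and 46.4% of them. Loci with at least 1 read numbered 3668, 4571 and 4676 in the controls and 4688, 6493 and 6344 after the U7 ASO. Over all repeat kinds, loci with a read numbered between 96631 and 120658 in the controls and between 118352 and 160749 after the U7 ASO. The total number of repeat reads was also higher in each U7 ASO library than in every control library, and the part of depth in these locus counts was not tested.

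**Figure D1:**
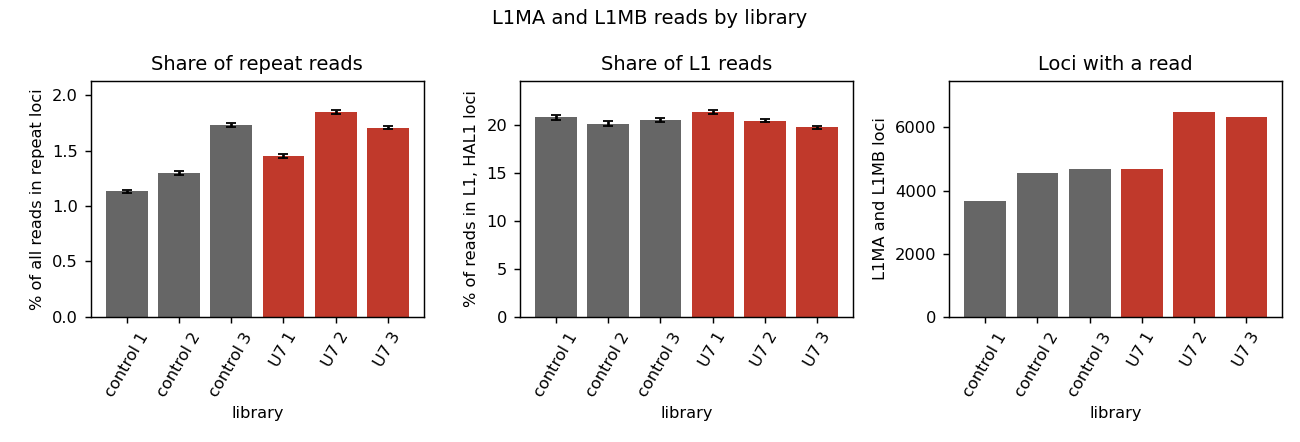
Bars give, for each of the 6 libraries, the percentage of all repeat reads in L1MA and L1MB loci, the percentage of all L1 reads in them (HAL1 loci included) and the number of these loci with at least 1 read; error bars on the percentages are exact 95% counting intervals. The percentage of L1 reads stays between 19.8% and 21.4% in every library, while 4688 to 6493 loci had a read after the U7 ASO and 3668 to 4676 in the controls.

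Summed over all members and scaled to CPM (reads brought to a common library total with TMM factors), the level was 12270, 13431 and 16562 in the controls and 14253, 17856 and 17115 after the U7 ASO. Control library 3 lay above U7 ASO library 1, so the groups overlapped. The group means were 14088 ± 2220 and 16408 ± 1903 CPM (SD, n = 3 each), a ratio of means of 1.16, and the difference of the means was about as large as either SD. For L1MA the control mean was 5025 ± 847 CPM and the U7 ASO mean 6150 ± 888 CPM, a log2 ratio of 0.29. For L1MB it was 9062 ± 1375 and 10258 ± 1015 CPM, a log2 ratio of 0.18. Reads in L1MA per read in L1MB were 0.540, 0.560 and 0.562 in the controls and 0.565, 0.618 and 0.611 after the U7 ASO. On this ratio the groups did not overlap, though U7 ASO library 1 lay close to control library 3. In bulk RNA, fewer cells carrying a transcript and less of it per cell cannot be told apart.

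Nearly all of the difference in the sum came from loci with too few reads to test singly. The 16459 members that did not pass the count filter summed to 8681, 9821 and 11913 CPM in the controls and 10204, 13754 and 13147 CPM after the U7 ASO, a ratio of means of 1.22. They accounted for 96.1% of the difference between the group means. The 402 members that passed the filter summed to 3949 ± 606 CPM in the controls and 4039 ± 67.5 CPM after the U7 ASO, a ratio of 1.02. L1MA alone, over the loci that passed, had a log2 ratio of -0.02 in place of 0.29. Reads were spread thinly: 26.5% of the members held 1 or 2 reads over all 6 libraries, 58.7% had reads in a single library, 380 had reads in all 6, and 156 held over 100 reads. Members with reads only in U7 ASO libraries numbered 7457 and those with reads only in controls 4255, beside the higher repeat read totals of the U7 ASO libraries.

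By subfamily, none of the 19 L1MA and L1MB repeat names passed the test on reads summed over their loci (edgeR quasi-likelihood test, adjusted p under 0.05 over all 2236 names tested). The adjusted p-values of the L1MA and L1MB names from edgeR ran from 0.11 to 0.846. DESeq2 called 1 of the 19 names, limma-voom 0 and edgeR without U7 ASO library 1 called 1, and 2 names had an unadjusted p under 0.05 in edgeR. Over all names tested, 1.52% were raised and 1.03% lowered. The fitted log2 fold change was positive for 18 of the 19 names, with a median of 0.21 beside a median of -0.01 over all names tested. The medians were 0.35 for the 12 L1MA names and 0.17 for the 7 L1MB names. The 95% interval of the fold change covered 0 for 17 names, and for 18 names its upper end lay below a log2 fold change of 1, a doubling. All 19 names were fitted on the same 6 libraries, so their shared sign is not 19 separate observations.

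**Figure D2:**
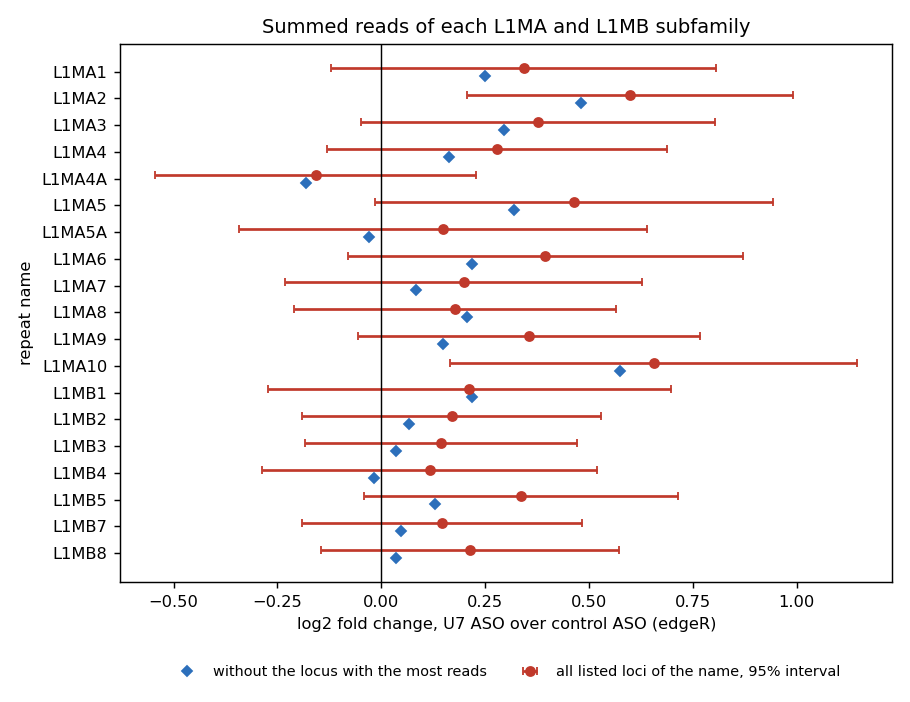
Circles give the edgeR log2 fold change, U7 ASO over control ASO, of the summed reads of each L1MA and L1MB repeat name, with bars for the 95% interval. Diamonds give the value from a refit without the most-read locus of every repeat name, members or not. Its library scaling was fitted anew, so the gap between circle and diamond is not the weight of 1 locus. The circles lie between -0.16 (L1MA4A) and 0.66 (L1MA10), and 17 of the 19 bars cross 0.

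L1MA2 and L1MA10 were the names with an unadjusted p under 0.05, and the only ones of the 19 whose groups did not overlap. L1MA2 had 472, 460 and 533 CPM in the controls and 596, 827 and 796 CPM after the U7 ASO. Its log2 fold change was 0.60 (SE 0.19, adjusted p = 0.11, edgeR). L1MA10 had 93.2, 142 and 126 CPM in the controls and 182, 213 and 174 CPM after the U7 ASO. Its log2 fold change was 0.66 (SE 0.23, adjusted p = 0.185, edgeR). The share of all tested names whose groups did not overlap was 9.93% after the U7 ASO higher and 10.2% with it lower, close to 2 of 19. L1MA2 passed in edgeR without U7 ASO library 1 (adjusted p = 0.0121) and in DESeq2 (adjusted p = 0.0389). Its reads were spread over 723 loci, and its most-read locus held 2.78% of them.

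L1MA4A was the only name with a negative log2 fold change, at -0.16 (SE 0.18, adjusted p = 0.761, edgeR). Its levels were 621, 775 and 812 CPM in the controls and 563, 707 and 709 CPM after the U7 ASO, which overlap. A single copy, L1MA4A_dup5_3460662, held 10.8% of the reads of the name and accounted for 69.6% of the net difference of its group means. Rises and falls of copies cancel in a net difference, so such shares can be large for several copies. On the same scale L1MA4A_dup392_375721 accounted for 41.5% and L1MA4A_dup484_3136965 for 22.7%, while the raised L1MA4A_dup306_2673802 stood at -11.0%. In the refit without the most-read locus of every repeat name, the log2 fold change of L1MA4A was -0.18. That refit also changed the library scaling, so the value does not show the weight of L1MA4A_dup5_3460662 alone. The other L1MA names had positive values that did not pass. L1MA1 had a log2 fold change of 0.34, L1MA3 of 0.38 and L1MA4 of 0.28. L1MA5 stood at 0.46, L1MA6 at 0.40, L1MA7 at 0.20, L1MA8 at 0.18 and L1MA9 at 0.36, all on the log2 scale. L1MA5A, with 267 listed loci, stood at 0.15, and at -0.03 in that refit over all names.

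The 7 L1MB names held more reads in sum than the L1MA names, and none had an unadjusted p under 0.05 in edgeR. L1MB7, the name with the most listed loci (2848), had 2187, 2473 and 3033 CPM in the controls and 2529, 3012 and 2972 CPM after the U7 ASO. L1MB3, with 2225 loci, had 1937, 1940 and 2445 CPM in the controls and 2189, 2364 and 2431 CPM after the U7 ASO. In both names control library 3 lay above all 3 U7 ASO libraries. Their log2 fold changes were 0.15 (SE 0.16) and 0.14 (SE 0.16). L1MB8 stood at 0.21, L1MB1 at 0.21, L1MB2 at 0.17 and L1MB4 at 0.12 on the log2 scale, and L1MB5 at 0.34. In the refit without the most-read locus of every repeat name, with its new scaling, 16 of the 19 log2 fold changes were positive and their median was 0.15. For L1MB8 and L1MB5 a single copy carried 32.6% and 29.9% of the net difference between the group means, in which rises and falls cancel. Their log2 fold changes in that refit were 0.04 and 0.13, which mix the loss of the copy with the new scaling.

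At the level of single copies, 402 members (2.38% of those listed) had enough reads to be tested: 147 L1MA and 255 L1MB loci. Of these, 8 were raised after the U7 ASO, 0 were lowered and 394 did not pass (edgeR quasi-likelihood test, adjusted p under 0.05 over all 14380 loci tested). Unadjusted p-values under 0.05 went to 25 loci with higher and 7 with lower values, DESeq2 called 17 raised and 0 lowered, and limma-voom called 4 raised and 0 lowered. Leaving out U7 ASO library 1, 2 or 3 left 4, 4 and 4 raised members in edgeR, with 1 lowered in the second case. The raised members were 1.99% of those tested, beside 4.49% raised and 0.473% lowered over all loci tested. Much of that background lies in LTR12 and HERV9, the long terminal repeats and internal parts of an endogenous retrovirus that the series title names; outside them 2.28% of the tested loci were raised. The raised share of L1MA and L1MB was near that of the repeats outside LTR12 and HERV9, so it is no result about these elements. Groups did not overlap for 46 members after the U7 ASO higher (11.4%) and for 23 with it lower (5.72%), beside 12.2% and 8.36% of all loci tested. The median log2 fold change of the tested members was 0.21, beside 0.06 over all loci tested. A locus with 0 control reads could pass the count filter only through the U7 ASO libraries, so these shares and medians hold for tested loci and are given as a description. Tested members with 0 control reads numbered 9, of which 7 were raised, and of the 393 with a control read 1 was raised.

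**Figure D3:**
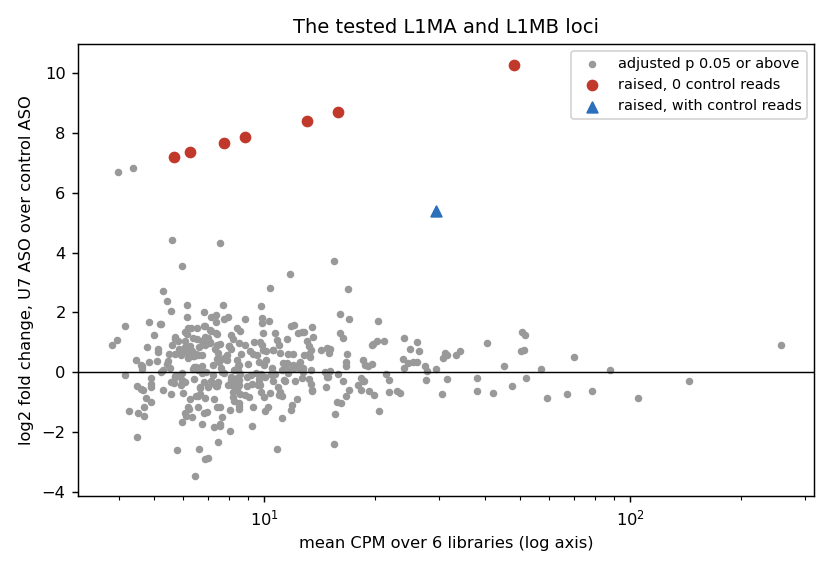
Each point is 1 of the 402 tested L1MA and L1MB loci, with the mean CPM over the 6 libraries on a log axis and the edgeR log2 fold change on the vertical axis. Of the 8 raised loci, 7 had 0 control reads (circles; their height depends on the prior count of the fit and is no estimate of fold) and 1 had control reads (triangle, at 5.38); of the other 394 points (grey), 2 also had 0 control reads and lie among the circles, at heights that depend on the prior count too, and most of the rest lie nearer 0.

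The raised loci were 3 copies of L1MB7 and 1 copy each of L1MB5, L1MB3, L1MA9, L1MA5 and L1MA4A. Together they held 0, 4 and 2 reads in the controls and 404, 409 and 544 reads after the U7 ASO. In CPM their sum was 1.04 ± 1.08 in the controls and 184 ± 13.8 after the U7 ASO, which was 7.88% of the difference in the sum over all members. A fold against 0 control reads is given below as a bound, computed against a floor of 3 reads over the control group.

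L1MB5_dup194_5315199 had the lowest adjusted p of the members. It held 0 reads in each control library and 161, 177 and 141 reads in U7 ASO libraries 1, 2 and 3. Its level was thus at least 146-fold higher after the U7 ASO (adjusted p = 1.15e-05, edgeR). It stayed past the threshold in all 15 alternative analyses. The copy with the preceding number, L1MB5_dup193_5315198, held 0 control reads and 69 reads after the U7 ASO but did not pass the count filter.

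L1MA9_dup180_1901045 was the only raised member with control reads. It held 0, 4 and 2 reads in the controls and 76, 63 and 157 reads after the U7 ASO, so the groups lay far apart. The log2 fold change was 5.38 (SE 0.74, adjusted p = 0.000359, edgeR). It accounted for 25.7% of the net difference between the group means of L1MA9. The call was lost with limma-voom (adjusted p = 0.0710) and kept in the 14 other alternatives.

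L1MB7_dup966_1087631 and L1MB3_dup60_1855591 also had 0 reads in every control library. The L1MB7 copy held 52, 33 and 77 reads after the U7 ASO and was at least 49.5-fold higher (adjusted p = 0.000538, edgeR). The L1MB3 copy held 46, 46 and 38 reads and was at least 39.7-fold higher (adjusted p = 0.000944, edgeR). Both passed in all 15 alternatives, so they and the L1MB5 copy are the members whose call did not depend on any setting tried.

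The other 4 raised loci had fewer reads, and each lost its call whichever U7 ASO library was left out. L1MB7_dup294_1918779 held 0 control reads and 19, 32 and 39 reads after the U7 ASO, at least 27.5-fold higher (adjusted p = 0.00544, edgeR). L1MA5_dup246_3105775 held 0 control reads and 22, 26 and 30 reads after the U7 ASO, at least 23.8-fold higher (adjusted p = 0.00928, edgeR). Both lost the call without any 1 of the U7 ASO libraries, the first with adjusted p-values of 0.0665, 0.0683 and 0.0994 and the second with 0.122, 0.0892 and 0.115 in edgeR without library 1, 2 and 3.

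L1MA4A_dup306_2673802 held 0 control reads and 14, 18 and 32 reads after the U7 ASO, at least 19.6-fold higher (adjusted p = 0.0295, edgeR). L1MB7_dup1323_3107882 held 0 control reads and 14, 14 and 30 reads after the U7 ASO, at least 17.7-fold higher (adjusted p = 0.0481, edgeR). Leaving out any library of either group ended both calls, with adjusted p-values in edgeR from 0.0668 to 0.358 for the L1MA4A copy and from 0.0948 to 0.409 for the L1MB7 copy. The L1MB7 copy also missed the threshold with library totals as the only scaling (adjusted p = 0.0550, edgeR) and with upper-quartile scaling (adjusted p = 0.0621, edgeR). In all, the L1MA4A copy passed in 5 and the L1MB7 copy in 2 of the 14 alternatives in which each was tested, and both also lost the call with no count filter and with limma-voom. With 0 control reads, these 2 loci could pass the count filter only with reads in every U7 ASO library. Having such reads is thus no further support for their calls. The L1MA4A copy was raised while the name L1MA4A had the negative value given above.

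**Figure D4:**
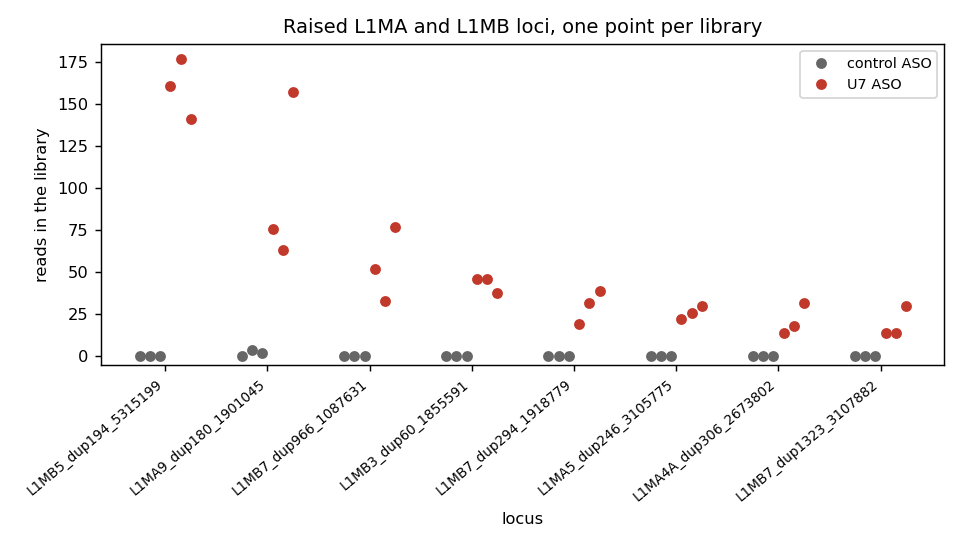
Each point is the number of reads in 1 library at a raised L1MA or L1MB locus, grey for the 3 control ASO libraries and red for the 3 U7 ASO libraries. Control points sit at 0 for all loci except L1MA9_dup180_1901045, whose controls reach 4 reads, and the lowest U7 ASO point of any locus is 14.

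The raised members sat among other repeats that mostly had no control reads. Identifiers end in a running number that increases down the tables; that neighbouring numbers are neighbours in the genome is an assumption here. Within 20 running numbers of the 8 raised members, 116 other loci were listed and 21 were tested, of which 20 were raised. Of those 116 neighbours, 103 (88.8%) held 0 control reads. All 116 together held 175 reads in the controls and 21486 after the U7 ASO. Of the latter, 12773 lay around L1MB7_dup1323_3107882 and 6051 around L1MB7_dup294_1918779. In both places LTR12C loci held most of the reads. Around each of the other raised members, the neighbours held between 24 and 972 reads after the U7 ASO. Within the same distance of the other 394 tested members, 4 of 473 tested neighbours were raised (0.846%), and 32.7% of the listed neighbours held 0 control reads. A raised LTR12 locus lay within 20 numbers of 3 of the 8 raised members (37.5%), compared with 2 of the 394 other tested members (0.508%). The share among all raised loci outside LTR12 and HERV9 was 38.5%, and among all tested loci outside them 1.24%. The share among raised members was near the share among raised loci of other kinds. Each listed locus holds a read in some library, so a neighbour with 0 control reads is listed only through U7 ASO reads. Of the 8 raised members, 7 had 0 control reads and likewise passed the count filter only through the U7 ASO libraries. The gap between 88.8% and 32.7% is therefore no support for a change around the raised members. Both the members and their neighbours were read from the same libraries and contrast, so all these shares are a description with no test.

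The LTR12 neighbours differed in distance and level. L1MB7_dup1323_3107882 lay 2 numbers before LTR12C_dup68_3107884, which held 8, 8 and 20 reads in the controls and 2403, 1576 and 2161 reads after the U7 ASO. It also lay 4 numbers before LTR12C_dup69_3107886, raised too, with 48 reads over the controls and 6206 over the U7 ASO libraries. L1MB7_dup966_1087631 lay 2 numbers after LTR12C_dup117_1087629, which held 0 control reads and 98, 68 and 56 reads after the U7 ASO. L1MB7_dup294_1918779 lay 19 numbers before LTR12C_dup126_1918798, which held 28, 0 and 22 reads in the controls and 1210, 901 and 1025 after the U7 ASO. The L1MB7 copies themselves held far fewer reads than LTR12C_dup68_3107884, LTR12C_dup69_3107886 and LTR12C_dup126_1918798.

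For the other 5 raised members no raised LTR12 or HERV9 locus lay within 20 numbers. L1MB5_dup194_5315199 had LTR12C_dup16_5315207 at a distance of 8 and L1MB3_dup60_1855591 had LTR12B_1855585 at a distance of 6, and these untested LTR loci held 0 control reads and 25 and 39 reads after the U7 ASO. L1MA5_dup246_3105775 lay 27 numbers from LTR12C_dup61_3105802 (6 control and 230 U7 ASO reads, raised), just outside the distance used. For L1MA4A_dup306_2673802 the nearest listed LTR12 locus was 50 numbers away and untested. L1MA9_dup180_1901045 had none closer than 987 numbers, yet the AluSc locus with the preceding number was raised as well, with 0 control and 86 U7 ASO reads. A link between any of these repeats in 1 transcript was not tested, since the counts hold no read that joins 2 loci.

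**Figure D5:**
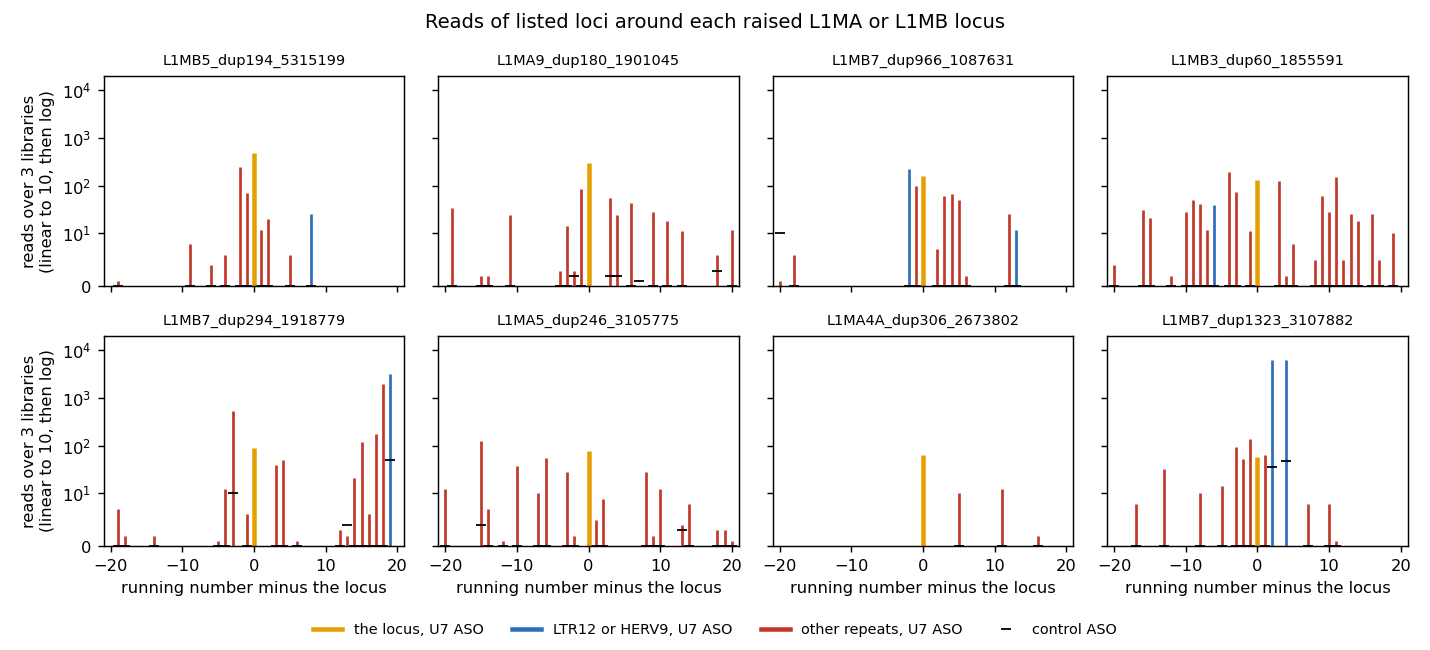
For each raised L1MA or L1MB locus (orange, at 0), vertical lines give the reads of every listed locus within 20 running numbers, summed over the 3 U7 ASO libraries (blue for LTR12 and HERV9, red for other repeats), and short dashes give the sum over the 3 controls; the vertical axis is linear to 10 reads and logarithmic above. Control dashes lie at or near 0 for most neighbours, and the tallest blue lines are the LTR12C loci beside L1MB7_dup1323_3107882 and L1MB7_dup294_1918779.

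The 10 copies with the highest mean CPM had reads in every library, and none passed in the edgeR test used for the counts above. L1MB8_dup8_5177207, the most abundant, held 199, 222 and 404 reads in the controls and 401, 625 and 683 reads after the U7 ASO. On the CPM scale of single loci its control library 3 (253.3) and U7 ASO library 1 (253.6) nearly touched. In reads, control library 3 was the higher of them. Its log2 fold change was 0.93 (SE 0.32, adjusted p = 0.157, edgeR), and it passed in 4 of 15 alternatives, among them DESeq2 (adjusted p = 0.0308), limma-voom (adjusted p = 0.0410) and edgeR with a stricter count filter (adjusted p = 0.0392). L1MA8_dup147_964336 held 192, 267 and 270 reads in the controls and 332, 134 and 183 reads after the U7 ASO, which overlap (log2 fold change -0.27). L1MA4A_dup5_3460662 held 140, 201 and 280 reads in the controls and 182, 114 and 72 after the U7 ASO, which also overlap (log2 fold change -0.84, SE 0.40, adjusted p = 0.424, edgeR).

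The remaining abundant copies had log2 fold changes of both signs. L1MB2_dup255_601453 stood at 0.09, L1MB4_dup220_583842 at 0.51 and L1MA4A_dup99_2238428 at 0.13. L1MB8_dup32_5242836 stood at -0.61, L1MA4A_dup392_375721 at -0.71, L1MB7_dup969_3445562 at -0.86 and L1MB3_dup440_3342260 at -0.18. The signs for L1MB2_dup255_601453 and L1MA4A_dup99_2238428 turned negative with upper-quartile scaling (-0.06 and -0.03). No direction is given for these copies.

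The 5 tested members with the most negative values had control means from 9.91 to 12.3 CPM and U7 ASO means from 1.04 to 1.82 CPM. The median over all tested members, as a mean over the 6 libraries, was 8.53 CPM. With so few reads after the U7 ASO, these loci could pass the count filter only through the controls. L1MB7_dup576_5037021 held 15, 15 and 25 reads in the controls and 2, 3 and 0 reads after the U7 ASO, with no overlap between the groups. Its log2 fold change was -3.44 (SE 1.30, adjusted p = 0.235, edgeR). L1MB2_dup82_1220424 held 13, 10 and 34 reads in the controls and 2, 2 and 4 after the U7 ASO, a log2 fold change of -2.89. L1MA9_dup7_3460629, L1MA7_dup26_3471355 and L1MB1_dup31_4307130 had log2 fold changes of -2.85, -2.57 and -2.57. Their adjusted p-values in edgeR lay between 0.247 and 0.552 for these 4. In simulated counts built from these libraries, 100 tested loci were changed 16-fold and 100 changed 4-fold, with rises and falls mixed. Of these, 78 and 73 still passed the count filter, and 57 and 16 were called. A locus changed 4-fold would thus often be missed at this depth.

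A further 7 members, chosen after their values were seen because their unadjusted p lay under 0.01, did not pass. The closest to the threshold was L1MA4_dup105_2949445, with 0, 0 and 10 reads in the controls and 72, 40 and 30 reads after the U7 ASO (log2 fold change 3.71, SE 1.06, adjusted p = 0.0654, edgeR). It passed in 4 of 15 alternatives, among them DESeq2 (adjusted p = 0.00645), edgeR with a stricter count filter (adjusted p = 0.00338) and edgeR without control library 3, the only control with a read (adjusted p = 0.00338). L1MB7_dup302_5301789 held 30, 41 and 60 reads in the controls and 141, 135 and 84 after the U7 ASO (log2 fold change 1.36, SE 0.41, adjusted p = 0.0897, edgeR). The opposite pattern was seen in L1MA4A_dup484_3136965, with 26, 52 and 42 control reads and 4, 18 and 2 reads after the U7 ASO. Its log2 fold change was -2.40 (SE 0.80, adjusted p = 0.142, edgeR), and it passed as lowered without U7 ASO library 2 (adjusted p = 0.0480, edgeR). The other 4 were L1MA2_dup53_1934367, L1MB7_dup119_4446950, L1MB4_dup244_4579749 and L1MA6_dup258_3053358, all with higher reads after the U7 ASO and adjusted p-values in edgeR between 0.100 and 0.143.

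Beside the other L1 lineages, the summed levels of L1MA and L1MB had ratios between groups that lay inside the range of the others. The ratio of the group means of summed CPM was 1.21 for young primate L1 (L1HS and L1PA2 to L1PA8A, 11294 listed loci), 1.33 for older primate L1 (higher-numbered L1PA, L1PB and other L1P names, 9801 loci), 1.22 for L1MA, 1.13 for L1MB and 1.11 for ancient L1M (L1MC to L1MF, the numbered L1M and HAL1, 45141 loci). Raised loci were 16 of 555 tested in young primate L1, 19 of 298 in older primate L1, 3 of 147 in L1MA, 5 of 255 in L1MB and 17 of 901 in ancient L1M. Lowered loci were 1, 1, 0, 0 and 2 in the same order. The median log2 fold change over repeat names was 0.33, 0.39, 0.35, 0.17 and 0.18 in that order. The differences between these lineages were not tested, and nothing is called particular to L1MA or L1MB from them.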

How the data were processed

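The authors deposited 1 table of raw read counts per library, with 1 row per repeat locus. The GRCh38 build, STAR 2.5.3a, featureCounts 1.5.0-p1 and FastQC 0.11.5 are listed in the submitters' processing notes, with no settings. No source used here gives the repeat annotation, the strand setting or how multi-mapping reads were treated, so antisense and passing transcripts are not separated and near-identical copies could share reads. Between 78.9% and 84.0% of the L1MA and L1MB counts above 0 were even numbers, and whether mates were counted separately is not stated; values are called reads.

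Counts per locus (14380 tested of 433837), and counts summed by repeat name (2236 tested of 5230), were tested with edgeR 4.0.16 (glmQLFit and glmQLFTest, two-sided) in R 4.3.3, with TMM scaling and filterByExpr (minimum count 10, minimum total 15). P-values were adjusted by Benjamini-Hochberg over all features tested, with a threshold of 0.05. CPM and SD are over 3 libraries. CPM of single loci were scaled to the totals of the tested loci, and CPM of names and of sums to the totals of the tested names. Values of these kinds are not on the same scale. P-values measure the spread between these libraries. DESeq2 1.42.0, limma 3.58.1 (voom), other scalings and filters, a fold of 1.5, a replicate block, and leaving out each library were alternatives. In simulated counts at the 2236 names, 100 names were changed 4-fold and 100 changed 2-fold, with rises and falls mixed. Of these, 92 and 97 still passed the count filter, and 77 and 35 were called.

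All L1MA and L1MB names, all raised members, the 10 members with the highest mean CPM, and the 5 members at either extreme of log2 fold change are named, with neighbouring LTR12 loci. Members, classes and lists were chosen with earlier results of these data known. The labels state no pairing by replicate number, and the main test used none. Whether the numbers pair the libraries was not settled.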

Additional observations from a re-analysis of the deposited data

How the results depend on the processing

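The 8 raised member loci became 17 with DESeq2 (all 8 among them) and 4 with limma-voom (3 of the 8), and numbered between 4 and 10 when each library was left out. The lowest counts were 4, 5 and 4 without U7 ASO libraries 1, 2 and 3, and the 5 include 1 lowered locus. With the replicate number as a replicate block there were 10 raised member loci, 6 of them shared, and 1 repeat name, L1MA2 (adjusted p = 0.0255, edgeR). The block ended the calls of L1MA4A_dup306_2673802 (adjusted p = 0.124) and L1MB7_dup1323_3107882 (adjusted p = 0.202) and added those of L1MB8_dup8_5177207 (adjusted p = 0.0324) and L1MA4_dup105_2949445 (adjusted p = 0.0438) among others. The names called numbered 0 in the main analysis, 1 with DESeq2, and between 0 and 1 when each library was left out; the 1 was L1MA2, without U7 ASO library 1. Same-numbered libraries correlated at 0.06, -0.03 and 0.03 over loci and at 0.12, -0.03 and 0.12 over names, and not every library correlated best with its own number, so the numbers were not taken to pair the libraries. The summed log2 ratio of 0.22 ran from 0.14 to 0.36 over the left-out libraries and was 0.03 over loci that passed the filter; for L1MA (0.29) it was 0.21 to 0.44 and -0.0222. Of single values, L1MA5A (0.15) was -0.0290 and L1MB4 (0.12) -0.0186 in the refit without the most-read locus of every repeat name. That refit also changed the library scaling. With upper-quartile scaling, L1MB2_dup255_601453 was -0.0565 and L1MA4A_dup99_2238428 -0.0257. Leaving out libraries gave L1MA5A -0.00553 to 0.28, L1MB2_dup255_601453 -0.0151 to 0.21, L1MA4A_dup99_2238428 -0.210 to 0.34 and L1MB3_dup440_3342260 -0.43 to 0.0389. The cause of these changes was not tested. Upper-quartile scaling moved the median of all tested loci from 0.06 to -0.09; 207 of the 402 tested members were then positive, in place of 231, and 18 of the 19 names in each scaling. In total, 297 of 304 alternative values of names and 383 of 436 of named loci kept their direction and side of the threshold. Depth limits single loci: members that passed the filter held between 23.0% and 29.2% of the member reads of a library.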
